A study of Homo sapiens with 6 samples.

Results

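The regions described here are 930 ChIRP-seq peaks of the DINO RNA, 485 recovered with the even probes and 445 with the odd probes. Each lay in untreated chromatin, overlapped no peak of either RNase-treated list by 1 bp, and had its summit within 10 kb of the summit of such a peak of the other probe set. They were chosen by measured values, namely which peaks each library gave and where, so their sensitivity to RNase and their nearness to each other are descriptions and not findings. They make up 0.663% of the 140364 untreated peaks on chromosomes 1 to 22 and X, and 4.12% of the 22597 untreated peaks that were RNase-sensitive in this sense. The 4 lists together held 314001 peaks on these chromosomes.

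DINO is a long noncoding RNA that p53 induces after DNA damage, and it is known to bind and stabilise p53 and so to strengthen the p53 response. It is transcribed from beside CDKN1A, the p53 target gene on chromosome 6 that encodes the cell-cycle inhibitor p21. In ChIRP, oligonucleotides that carry biotin and pair with an RNA are used to fish out the crosslinked chromatin around it, and the DNA that comes along is sequenced. Some fragments are recovered without the RNA, for example where an oligonucleotide binds DNA directly. Splitting the oligonucleotides into an even and an odd set and digesting the RNA beforehand are the usual controls for such recovery, and sites that both sets give and that RNase removes are those a ChIRP experiment looks for.

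U2OS is an osteosarcoma line of human origin whose p53 is wild type, and it was used throughout. All libraries came from cells given 0.2 µg/mL doxorubicin, a drug that breaks DNA, for 24 h and then crosslinked with glutaraldehyde, so no group lacked DNA damage. The 4 groups were even and odd probes on untreated chromatin and even and odd probes on RNase-treated chromatin, with 1 library each. There was therefore no spread between replicates, no p-value between libraries is given, and each difference is one between these libraries. Per peak, the lists give a fold, which is the authors' ratio of enrichment over the background of their peak caller, and the −log10 of a p-value and a q-value. The number of reads behind the lists is unknown. Positions are in hg19 and 1-based. They were not matched to genes, since no annotation of that build was used here.

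RNase-sensitive peaks were a minority of both untreated lists. Of 105669 even peaks, 19955 (18.9%) overlapped no RNase-treated peak, and of 34695 odd peaks, 2642 (7.61%) did not. Of the sensitive even peaks, 485 (2.43%) had a sensitive odd summit within 10 kb, and of the sensitive odd peaks, 445 (16.8%) had a sensitive even summit within 10 kb. The mirror of the rule takes peaks of the RNase-treated lists that overlap no untreated peak. There were 30569 such RNase-only peaks among 116171 even peaks (26.3%) and 25091 among 57466 odd peaks (43.7%). Of these, 5118 even peaks (16.7%) and 5050 odd peaks (20.1%) lay within 10 kb of each other, 10168 in all. With all peaks of the lists, nearby RNase-only peaks thus outnumbered nearby sensitive ones. With the 34695 strongest peaks of every list the order was reversed, with 826 nearby sensitive and 753 nearby RNase-only peaks. Sensitivity was then found against shortened RNase-treated lists, and only 95 of the 826 were among the 930 members. The untreated odd list stayed whole, yet its sensitive peaks rose from 2642 to 6487. The added ones overlapped only RNase-treated peaks that had been left out, so the reversed order is not one of the sensitive peaks described here.

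Long lists give nearby summits by their density alone, so the number was set beside circular shifts. Both odd lists were moved together along each chromosome 1000 times, and RNase sensitivity was found again each time. Over shifts of at least 1 Mb, the mean was 736.4 nearby sensitive peaks, with a range of 614 to 861. The observed 930 lay above that range and was 1.263 times the mean. The even members (485) stood beside a mean of 385.7 with a range of 323 to 454, and the odd members (445) beside a mean of 350.7 with a range of 291 to 411. Over shifts of only 20 to 200 kb, which keep each peak in its own neighbourhood, the mean was 916.4 with a range of 763 to 1057. The observed number was then 1.015 times the mean and well inside the range. By number, the members thus did not stand apart from lists displaced by 20 to 200 kb. Those lists held more sensitive odd peaks, 2868 on average beside 2642 observed, which raises the mean that the 930 stood beside. Shares, which allow for this on the odd side, are given below.

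The mirror also exceeded the wider shifts and not the shorter ones. The 10168 nearby RNase-only peaks were 1.093 times the mean of 9307 over shifts of at least 1 Mb, whose range was 8880 to 9766. Over shifts of 20 to 200 kb the mean was 10291.2, with a range of 9842 to 10695, and the observed number was 0.988 times that mean. The number of sensitive odd peaks was itself not constant under the shifts: it averaged 2875 over those of at least 1 Mb, with a range of 2855 to 2904, beside 2642 observed. Over shifts of 20 to 200 kb it averaged 2868, with a range of 2842 to 2890. More odd peaks were sensitive once the odd lists no longer lined up with the even RNase-treated list. The share of observed sensitive odd peaks near an even one was 16.8%, beside a mean of 12.2% over shifts of at least 1 Mb and of 15.1% (12.8 to 17.3) over shifts of 20 to 200 kb. Odd peaks that overlapped an RNase-treated peak had a share of 15.3%, beside means of 12% and 14.5%.

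**Figure D1:**
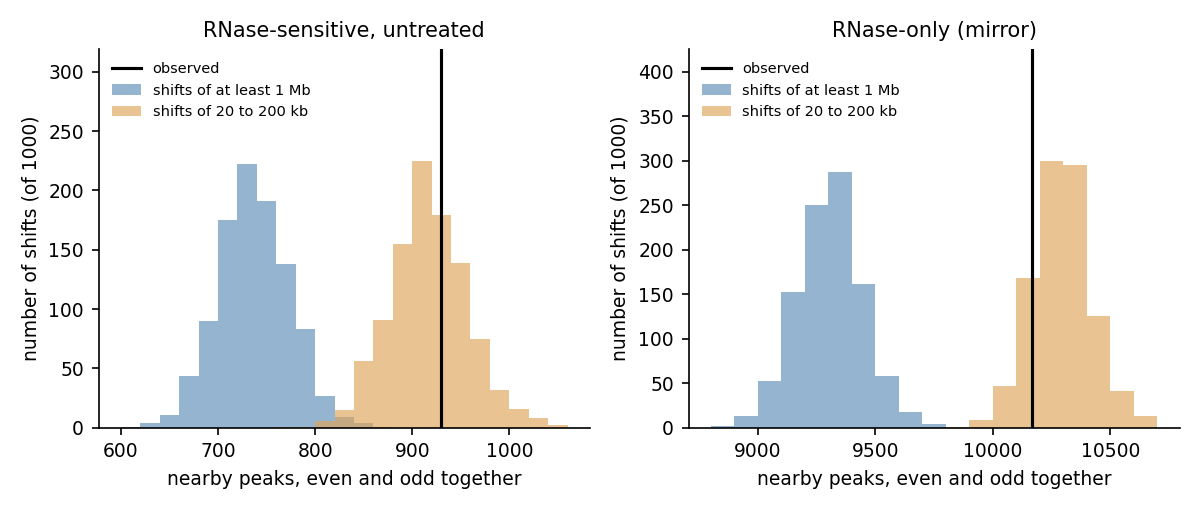
Number of nearby peaks of both probe sets in 1000 circular shifts of the odd lists (bars, for shifts of at least 1 Mb and of 20 to 200 kb) and as observed (line), for RNase-sensitive peaks (left) and RNase-only peaks (right). The x axis gives peaks, even and odd together, and the y axis the number of shifts. The observed 930 sensitive peaks lie above the shifts of at least 1 Mb (614 to 861) and amid those of 20 to 200 kb (763 to 1057), and the observed 10168 RNase-only peaks do likewise.

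Peaks that overlapped an RNase-treated peak were compared as partners in the same way. Among even peaks that overlapped an RNase-treated peak, 1907 of 85714 (2.22%, Wilson 95% interval 2.13 to 2.33) had a sensitive odd summit within 10 kb. Among sensitive even peaks the share was 2.43% (2.23 to 2.65). Seen from the odd side, 4914 of 32053 peaks that overlapped an RNase-treated peak (15.3%, 14.9 to 15.7) had a sensitive even summit within 10 kb, and among sensitive odd peaks the share was 16.8% (15.5 to 18.3). The intervals overlapped on both sides, which does not show that the shares are equal. They cover counting error only, treat neighbouring peaks as independent, and hold no spread between libraries. The difference between the shares was not tested. As shares, sensitive peaks of one probe set were nearly as frequent beside peaks that overlapped an RNase-treated peak as beside peaks that overlapped none.

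The 485 even and 445 odd members formed 492 even-odd pairs. The median distance between the summits of a pair was 4387 bp, with quartiles of 2130 and 7168 bp. Of the pairs, 57 had summits within 1 kb, 55 at 1 to 2 kb, 157 at 2 to 5 kb and 223 at 5 to 10 kb. The intervals themselves overlapped in 16 pairs, so nearly all members are neighbours of a peak of the other set and not the same place found by both. Most members had a single partner: 478 even members had 1 odd partner and 7 had 2, while 405 odd members had 1 even partner, 33 had 2 and 7 had 3 or more.

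By distance, the excess over shifts of at least 1 Mb was highest within 1 kb but did not end at 10 kb. Pairs within 1 kb were 1.448 times the mean of 39.37 (range 21 to 61), and those at 5 to 10 kb 1.141 times the mean of 195.4. Pairs of sensitive peaks at 10 to 20 kb, which are not members, were 1.335 times their mean, and those at 50 to 100 kb 1.147 times. Over shifts of 20 to 200 kb the ratio was 1.157 within 1 kb, where the 57 pairs stood beside a mean of 49.25 and a range of 31 to 74, and 0.9093 at 5 to 10 kb. No bin below 10 kb lay outside the range of those shorter shifts. The 2255 pairs at 50 to 100 kb lay below their range, which was 2307 to 2629. Those shifted lists held a mean of 2868 sensitive odd peaks beside 2642 observed. The low number of pairs therefore does not show fewer pairs per sensitive odd peak.

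The crossed pairings, of a sensitive peak of one set with an RNase-only peak of the other, share no RNase state and were counted for comparison. Sensitive even peaks had 3986 summits of RNase-only odd peaks within 10 kb, 1.199 times the mean of 3326 over shifts of at least 1 Mb. RNase-only even peaks had 622 sensitive odd summits within 10 kb, 1.072 times the mean of 580.5. The members' pairs, 492 beside a mean of 391 (1.258 times), had a higher ratio over these shifts than either crossed pairing, and the mirror's 5669 pairs were 1.095 times their mean. Over shifts of 20 to 200 kb the members' pairs, 1.005 times their mean, were by this ratio no longer highest. Those of sensitive even and RNase-only odd peaks were 1.041 times their mean. The mirror's pairs (0.9896 times) and those of RNase-only even and sensitive odd peaks (0.9582 times) remained below the members'. Sensitive odd peaks, however, were 0.9213 times their mean number over these shifts (2642 beside 2868), and RNase-only odd peaks 0.9903 times. Ratios with sensitive odd peaks are therefore lowered more than the 1.041. These ratios do not show which pairing was highest per odd peak. With 1 library per condition these differences between ratios were not tested.

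**Figure D2:**
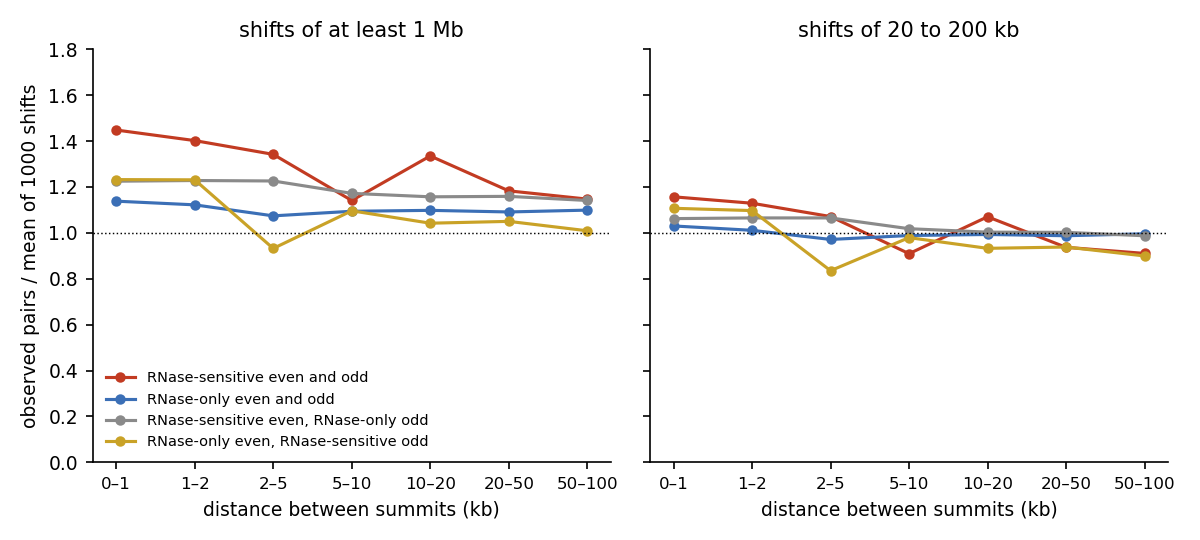
Observed number of even-odd summit pairs divided by the mean of 1000 circular shifts (y axis) in bins of the distance between summits in kb (x axis), for shifts of at least 1 Mb (left) and of 20 to 200 kb (right). Lines stand for the pairs of sensitive peaks, the mirror and the crossed pairings. The line of sensitive pairs falls from 1.448 within 1 kb to 1.147 at 50 to 100 kb on the left, and from 1.157 to 0.9104 on the right. The ratios are not adjusted for the higher number of sensitive odd peaks in the shifted lists.

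The members were weak peaks. The fold of the even members had a median of 7.144, with quartiles of 6.095 and 8.873 and a range of 3.634 to 37.32. That of the odd members had a median of 6.335, with quartiles of 5.469 and 7.393 and a range of 3.646 to 32.52. Even peaks that overlapped an RNase-treated peak had a median fold of 12.7, and odd ones 11.09. The median −log10 q-value was 9.209 for even members and 7.151 for odd members, beside 21.95 and 17.78 for the peaks that overlapped an RNase-treated peak. The members' intervals were also narrower, with median widths of 138 bp (even) and 123 bp (odd) beside 209 and 181 bp.

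Among sensitive peaks, nearness to the other probe set went with little difference in strength. The other sensitive even peaks had a median fold of 7.144, the same as the even members, and a median width of 137 bp. The other sensitive odd peaks had a median fold of 5.861 and a median width of 121 bp, slightly below the odd members. Of the 930 members, 83 had a fold below 5 and 113 a −log10 q-value below 5, while 8 had a fold of at least 20.

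Sensitivity itself was concentrated at the weak end of each list. In the strongest 10% of the untreated even list by p-value, 29 of 10579 peaks (0.274%) were sensitive and 2 were members. In the weakest 10%, 4733 of 10239 (46.2%) were sensitive and 116 were members. The odd list had 0 sensitive peaks among the 3486 of its strongest 10% and 775 among the 2838 of its weakest (27.3%), of which 139 were members. In all, 832 members (89.5%) ranked below the middle of their list. A weak peak lies closer to the threshold of the peak calls, and what part that plays in its missing after RNase was not tested.

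**Figure D3:**
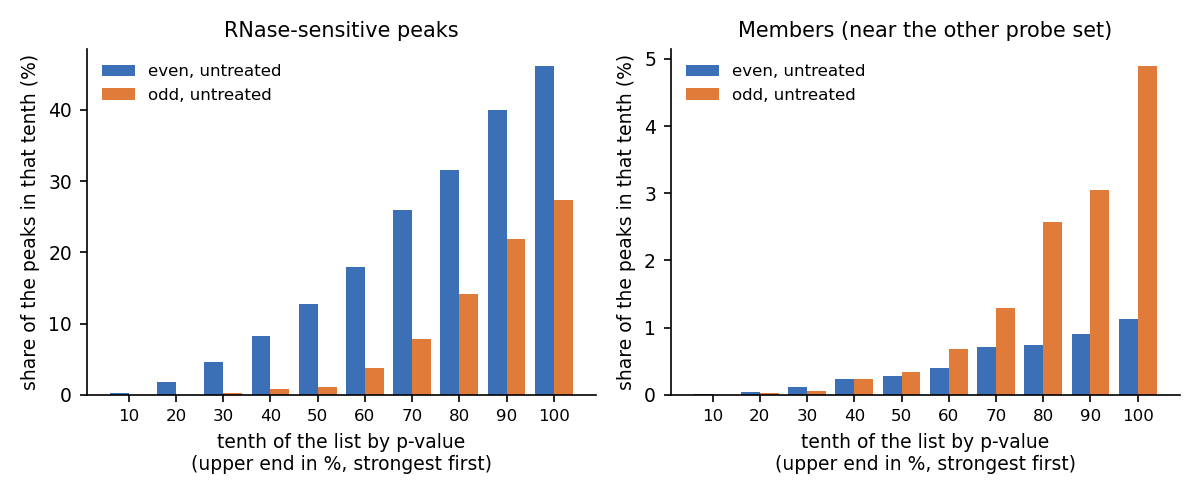
Share of peaks in each 10% of the untreated lists by p-value, strongest first (x axis, upper end in percent), that were RNase-sensitive (left) and that were members (right), in percent of the peaks in that bin (y axis), for the even and odd lists. Both shares rise toward the weak end, the members' share to 1.13% of even and 4.9% of odd peaks in the weakest 10%.

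The 8 members with a fold of at least 20 were 7 even peaks and 1 odd peak, chosen after their values were seen. The strongest even member, on chromosome 16 at 10779451 to 10779746, had a fold of 37.32 and lay 2729 bp from the nearest RNase-treated peak. Its odd partner's summit was 5122 bp away. The next, on chromosome 6 at 36644138 to 36644502, had a fold of 33.14, and its nearest odd summit was 154 bp away. The odd peak on chromosome 3 at 197181970 to 197182200 had a fold of 32.52 with an even partner of 9.54 at 2357 bp. The other 5, all even, had folds of 20.34 to 24.61 and lay on chromosomes 1, 7, 8, 14 and 15. Of these, the peak on chromosome 8 at 131661693 to 131661990 lay 107 bp from an RNase-treated peak and that on chromosome 7 at 91054412 to 91054637 lay 135 bp from one.

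A strong peak of one set seldom had a strong partner. The Spearman correlation of even and odd fold over the 492 pairs was 0.03, given as a description, since pairs share peaks and libraries. The even fold was above the odd fold in 322 pairs. Both folds were at least 5 in 412 pairs and at least 10 in 5. The highest smaller fold of a pair was 12.38, for an odd peak on chromosome 1 at 25908051 to 25908231. Its even partner at 25911461 to 25911692 had a fold of 15.45, its summit was 3392 bp away, and the nearest RNase-treated peaks were 17662 and 21072 bp off. This pair thus had the highest smaller fold and no RNase-treated peak close by.

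In the other 4 pairs with both folds at least 10, an RNase-treated peak was closer. On chromosome 18 the even peak at 76490732 to 76490889 had a fold of 11.89 and the odd peak at 76499427 to 76499713 one of 17.03, and the latter lay 240 bp from an RNase-treated peak. On chromosome 2 the folds were 14.42 (218891838 to 218892131, even) and 11.37 (218896692 to 218896845, odd), and the odd peak lay 373 bp from an RNase-treated peak. The pair on chromosome 19 had 11.98 (56118197 to 56118386, even) and 10.69 (56110226 to 56110378, odd), with gaps of 1042 and 6606 bp. The pair on chromosome 20 had 10.3 (24770160 to 24770345, even) and 15.07 (24775179 to 24775354, odd), with gaps of 2832 and 7851 bp. In these 5 pairs the summits were 3392 to 8831 bp apart, so none of them had overlapping intervals.

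The next 5 pairs by their smaller fold lay between 8.907 and 9.851. They were on chromosome 1 (even 13.07 at 162694444 to 162694670, odd 9.851), chromosome 3 (the odd peak of 32.52 above), chromosome 8 (even 9.229 at 110865982 to 110866124, odd 12.76), chromosome 19 and chromosome 11 (even 8.907 at 10496944 to 10497117, odd 10.11). The pair on chromosome 19 consisted of an even peak at 56110210 to 56110380 with a fold of 9.012 and the odd peak of 10.69 named before, with summits 8 bp apart. It was the sole pair both among the 10 with the highest smaller fold and among the 10 closest.

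**Figure D4:**
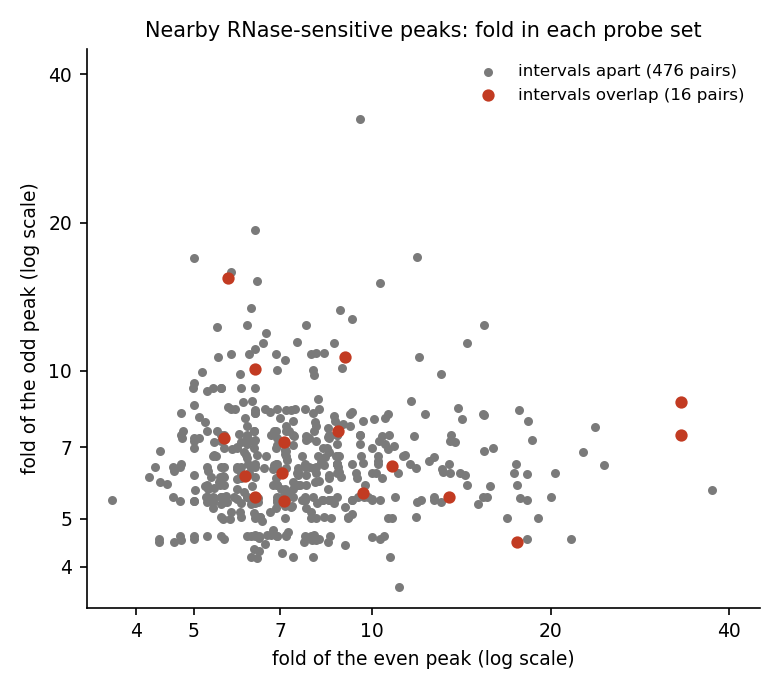
Fold of the even peak (x axis, log scale) against fold of the odd peak (y axis, log scale) for the 492 pairs, each point a pair. Pairs whose intervals overlap (16) are marked apart from the others. Points crowd at folds of 5 to 9 in both sets and high folds of one set meet low folds of the other, with a Spearman correlation of 0.03.

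The 10 closest pairs, whose summits were 0 to 78 bp apart, all had overlapping intervals and are the nearest the rule comes to 1 place found by both sets. Summits coincided on chromosome 1, where an even peak at 87705442 to 87705620 had a fold of 10.81 and an odd peak at 87705471 to 87705604 one of 6.403. The nearest RNase-treated peak was 20154 bp away. On chromosome 11, at 386452 to 386640 (even 8.747) and 386446 to 386585 (odd 7.535), the summits were 6 bp apart and an RNase-treated peak lay 3006 bp away. On chromosome 22, an even peak at 19348063 to 19348200 with a fold of 5.711 and an odd peak at 19348110 to 19348278 with 15.44 lay 47 bp apart, 28700 bp from an RNase-treated peak. The places on chromosomes 1 and 22 were thus the farthest from RNase-treated peaks among these 10.

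In the other closest pairs the folds were modest or uneven. On chromosome 12 the even fold was 17.57 (117993608 to 117993858) and the odd fold 4.487, and on chromosome 11 at 22031079 to 22031312 they were 13.49 and 5.545. The chromosome 11 pair at 65777743 to 65777865 was nearly even, with folds of 6.11 and 6.128 and summits 13 bp apart. The remaining ones, on chromosome 1 (even at 36034735 to 36034901), chromosome 2 (56150686 to 56150891) and chromosome 15 (64086713 to 64086835), had even folds of 5.623 to 9.654 and odd folds of 5.644 to 7.317. Their peaks lay 1195 to 5127 bp from RNase-treated peaks.

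The limit of 10 kb fell within a close run of distances. The last 3 sensitive even peaks inside it, with nearest sensitive odd summits at 9938, 9938 and 9991 bp, had folds of 6.464, 6.157 and 18.58. They started at 132003007 on chromosome 5, at 135728188 on chromosome 9 and at 143666832 on chromosome 8. The first 3 outside it, at 10015, 10016 and 10036 bp, had folds of 5.452, 5.383 and 7.321. Those started at 140320676 on chromosome 9, at 14984297 on chromosome 1 and at 44530528 on chromosome 11.

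Most members had a peak of an RNase-treated list nearby, counting RNase-only peaks as well as those that overlapped an untreated peak. An RNase-treated peak lay within 10 kb of 763 members (82%) and within 1 kb of 150 (16.1%), and 53 had none within 20 kb. None lacked one within 50 kb. For the even set, 82.7% of members and 77.3% of the other sensitive peaks had an RNase-treated peak within 10 kb, and for the odd set 81.3% and 73.2%. The summit of an RNase-treated peak lay between the paired summits in 146 pairs (29.7%). Within 50 kb of an even member there was a median of 17 peaks of the 4 lists together, and 14 around other sensitive even peaks, with 16 and 13 for the odd set. List by list, the medians around even members and other sensitive even peaks differed only for untreated odd peaks (2 and 1), the list that holds the partner. Around odd members and other sensitive odd peaks they differed for untreated even peaks (6 and 4), again the list of the partner, and for RNase-treated even peaks (5 and 4). Part of the gap in the total thus follows from the rule.

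Every chromosome compared held members, from 4 on X to 101 on chromosome 1. As a share of the sensitive peaks of the chromosome, they were fewest on X (0.816% of 490) and most on chromosome 18 (6.18% of 550), followed by chromosome 19 (5.95% of 655) and chromosome 16 (5.69% of 773). Per Mb, chromosome 19 had most, with 0.66 members and 11.1 sensitive peaks, and X had fewest, with 0.0258 members and 3.16 sensitive peaks. The density of sensitive peaks was thus at its highest and lowest on the same chromosomes as that of members. Near the outermost peaks of a chromosome, within 500 kb, lay 1.65% of even members beside 1.19% of the other sensitive even peaks, and 1.57% of odd members beside 0.956%, which are 8 and 7 members.

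Joined where neighbouring summits were at most 10 kb apart, the members formed 438 clusters. Of these, 392 were a single even-odd pair, 38 held 3 members and 8 held 4. Shifts of at least 1 Mb gave a mean of 345.7 clusters (range 288 to 406), a mean of 4.127 with 4 or more members (0 to 10), and a largest cluster of 4.417 members on average (3 to 7). The clusters were thus more numerous than in those shifted lists, and the largest was no larger than in them on average. Over shifts of 20 to 200 kb the mean was 427.2 clusters (362 to 488), a range that holds the observed 438, and the 46 clusters of 3 or more members stood beside a mean of 55.27 (33 to 75). Clusters of 4 held 3 even and 1 odd member in 7 cases and 2 of each in 1 case, and clusters of 3 held 2 even members in 32 cases and 2 odd members in 6. In 127 clusters an RNase-treated peak lay within 1 kb of a member, and in 19 there was none within 20 kb of any member.

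The 12 densest clusters, ranked by their number of members and then by the smaller of their highest even and odd folds, held 44 members, 29 even and 15 odd, on 8 chromosomes. Of the 44, 8 had a fold of 10 or more. In 7 of these clusters a member lay within 1 kb of an RNase-treated peak, and 7 to 19 RNase-treated peaks lay within 50 kb of the centre of each. The densest clusters thus did not lie in stretches free of RNase-treated peaks.

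First was the cluster on chromosome 7 at 1299547 to 1308624, with even peaks of 10.52, 6.095 and 6.995 and an odd peak of 8.035. The even peak at 1306303 to 1306426 lay 224 bp from an RNase-treated peak. The second, on chromosome 6 at 41492106 to 41500243, had even peaks of 5.479, 6.326 and 7.224 and an odd peak of 7.548. The summits of these clusters spanned 8945 and 8003 bp, and apart from the even peak of 10.52 at 1299547 to 1299793, whose −log10 q-value was 29.65, their folds were 5.479 to 8.035. The third, on chromosome 1 at 47215613 to 47229358, was the one with 2 peaks of each set: odd 7.076, even 7.362, even 6.921 and odd 5.861, in that order along the chromosome. On chromosome 20 at 3194230 to 3207563, the odd peak reached 10.84 amid even peaks of 6.882, 5.787 and 6.206.

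The remaining clusters of 4 had odd peaks of 6.38 or less. On chromosome 7 at 71098381 to 71105383, the even peaks had folds of 5.996, 4.735 and 6.872 and the odd peak 6.38, and on chromosome 3 at 13600022 to 13602204 the even peaks had 8.417, 5.912 and 5.29 and the odd peak 5.761. The latter was the tightest of the clusters of 4, with summits within 2010 bp. On chromosome 19 at 1098858 to 1110822, an even peak of 17.72 stood with even peaks of 5.407 and 6.411 and an odd peak of 5.519. Its members lay 14363 to 20925 bp from RNase-treated peaks, farther than those of the other 11 clusters. On chromosome 12 at 117993608 to 118002860, an even peak of 17.57 overlapped the odd peak of 4.487, and even peaks of 4.373 and 7.675 followed. In both clusters the strong even peak had no odd partner of similar fold.

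**Figure D5:**
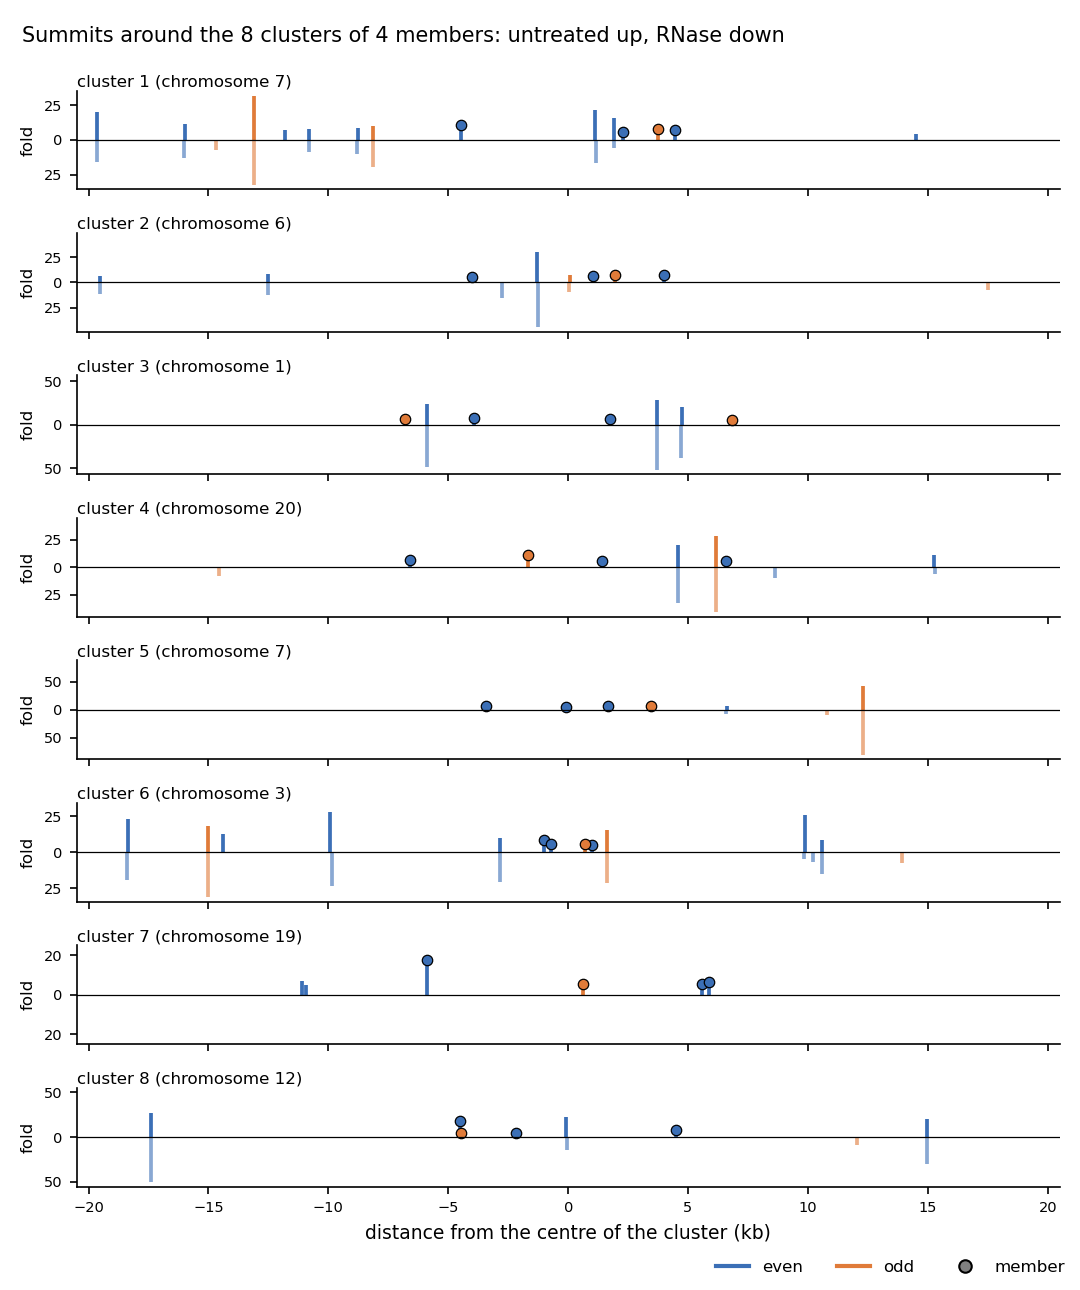
Peaks within 20 kb of the centre of the 8 clusters of 4 members, by distance of the summit from the centre in kb (x axis) and fold (y axis, scaled in each panel), with untreated lists drawn upward and RNase-treated lists downward; dots mark members and colours the probe set. Peaks of the RNase-treated lists stand between or beside the members in several panels, while the panel of cluster 7, on chromosome 19, shows none, as they begin 14363 bp from the nearest member.

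Of the clusters of 3 that completed the 12, the one on chromosome 19 at 56110210 to 56118386 had the highest smaller fold, with odd 10.69 and even 9.012 and 11.98. The cluster on chromosome 3 at 48606152 to 48612727 had odd 11.37 and even 8.605 and 6.542, and each of its peaks lay within 790 bp of an RNase-treated peak. The one on chromosome 11 at 73014023 to 73017101 had odd peaks of 8.186 and 7.742 and an even peak of 9.182, with RNase-treated peaks at 4809 bp or more. In all 3, the highest even and the highest odd fold lay between 8.186 and 11.98.

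The cluster ranked 10, on chromosome 6 at 36644005 to 36644551, was the most compact of the 12, with 3 summits within 336 bp. Its even peak at 36644138 to 36644502 had a fold of 33.14 and a −log10 q-value of 87.15. Its odd peaks, at 36644005 to 36644174 and 36644235 to 36644551, had folds of 7.403 and 8.641. Both odd intervals overlapped the even one from either side. The centre of the cluster lay 1384 bp from the summit of the highest-fold peak of the whole untreated odd list. RNase-treated peaks lay 743 to 1120 bp from its members, and 12 even and 7 odd ones lay within 50 kb of its centre. The cluster was found by its distance from the highest-fold odd peak, and its position relative to the genes DINO and CDKN1A was not determined here.

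The mirror had larger clusters. RNase-only peaks of both sets formed 4533 clusters, of which 34 held 5 or more peaks. Shifts of at least 1 Mb gave a mean of 28.41 clusters of that size (14 to 47), and shifts of 20 to 200 kb 32.11 (16 to 57). The largest, on chromosome 11 at 2064355 to 2091451, held 17 RNase-only peaks, 3 even and 14 odd, with folds up to 9.278. Shifts of at least 1 Mb gave a largest mirror cluster of 8.144 peaks on average, with a range of 5 to 18. Over shifts of 20 to 200 kb the average was 8.45 with a range of 5 to 16, which the observed 17 exceeded. The next 3 held 7 each: one was on chromosome 15 at 25295957 to 25321781, another on chromosome 11 from 69016897 to 69046215, and the other on chromosome 19, from 31564801 to 31588113. The fifth, on chromosome 8 at 48599869 to 48617515, held 6 with an even peak of 31.15 and an odd peak of 18.26. Its smaller fold of 18.26 was thus above the 12.38 that was the highest among the members. The mirror held 10168 peaks beside 930 members, and a larger set can reach larger clusters and higher folds by its size alone.

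The comparison held in direction under most other settings, with changes in number. Members within 10 kb were 1.234 times the mean of shifts of at least 1 Mb when no RNase-treated peak was allowed within 1 kb (671 members, all among the 930), and the chromosome 6 cluster was then not kept whole. With the 34695 strongest peaks of every list, there were 826 such peaks, 1.351 times the mean, but only 95 of them were among the 930, and the mirror fell to 753, 1.236 times its mean. Requiring a −log10 q-value of at least 10 in the untreated lists, a setting chosen after seeing the data, left 75 members, 1.507 times a mean of 49.77 with a range of 21 to 79. That number lay inside the range of the shifts.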

How the data were processed

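4 lists were compared, of even and odd probes on untreated and RNase-treated chromatin, with 1 library each; the 2 input samples were not analysed here. Bowtie, MACS2 and hg19 are named in the submitters' processing notes (versions, threshold and control library: not given in the sources used here). In the deposited narrowPeak lists, which have no header, the fold is a linear ratio over background, and −log10 p-values and q-values are the authors' own. Read numbers were not used.

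Python 3.11.15, numpy 2.4.6, pandas 2.3.3, scipy 1.17.1 and matplotlib 3.10.9 were used. Chromosome length was taken as the last peak end. Odd lists were shifted together, 1000 times, by at least 1 Mb or by 20 to 200 kb, and sensitivity was found again. The rule that chose the members asks for these shifts, and they are given as a description. The counting was tested on simulated data.

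The members and lists were chosen with earlier results of these data known. Positions named are the 12 densest clusters, the 10 pairs with the highest smaller fold, the 10 closest pairs, 3 peaks on each side of the limit, the 5 largest mirror clusters and the chromosome 6 cluster nearest to the strongest odd peak. Alternatives changed the distance, the definition of sensitivity, the thresholds, the number of peaks per list, the measure of nearness and the shifts. Comparisons with genes, promoters, p53 targets and p53 motifs were left out, because neither gene models nor sequence of hg19 were used here.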

Additional observations from a re-analysis of the deposited data

Results flagged for a closer look

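On mitochondrial DNA, which lies outside the chromosomes compared, the rule also found peaks: 6 nearby RNase-sensitive peaks of both probe sets, 3 even and 3 odd, beside 0 nearby RNase-only peaks. Neither RNase-treated list had an RNase-only peak there, so that 0 was fixed before nearness was counted. Every sensitive peak there, 3 even and 3 odd, counted as nearby, so nearness set none of them apart. The untreated lists held 9 even and 13 odd peaks there and the RNase-treated lists 7 each. With 1 library per condition this difference was not tested.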

How the results depend on the processing

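Of 42 values under alternatives, 33 stayed within 1.5 times and on the same side of 1, 8 moved by more and 1 fell on the other side of 1. The ratio to the mean of shifts stayed above 1 for the members in every setting run, from 1.015 (shifts of 20 to 200 kb) to 1.507 (untreated peaks limited to a −log10 q-value of 10 or more). Apart from the setting with shifts of 20 to 200 kb, every ratio was to shifts of at least 1 Mb. Moving only the odd peaks already found sensitive or RNase-only, which keeps their number, gave 1.371 for the members. That was not run with shifts of 20 to 200 kb. The ratio of 1.015 counts among the 33, although the observed 930 then lay inside the range of the shifts, 763 to 1057. The 113 members within 1 kb also lay inside their range, 42 to 120, as did the 75 under that q-value limit (21 to 79). The mirror's ratio turned to 0.988 with shifts of 20 to 200 kb. Numbers moved with the distance: members were 113 within 1 kb, 520 within 5 kb and 1788 within 20 kb, and the mirror 1167, 5374 and 18384. The mirror was 753 with the same number of strongest peaks in every list, and members were 75 under that q-value limit, added after the data were seen. The causes were not tested, other than that a shorter distance or a stricter threshold takes fewer peaks by construction. Of the 12 densest clusters, 10 were kept whole when all 4 lists were limited to a −log10 q-value of 5 or more, 5 with no RNase-treated peak within 1 kb, and 1 with lists of equal length. Each group had 1 library, so leaving out replicates was not possible, and the depth of the lists is unknown. No paired test was made, since the results are counts and come from no test. Each probe set was also compared with its own RNase-treated list only. That gave 1075 members, 1.418 times the mean of 758.3 (642 to 877) over shifts of at least 1 Mb. The mirror was then 10540, 1.11 times its mean.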

Other observations

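On chromosome Y, which was also outside the comparison, the rule found 0 nearby RNase-sensitive peaks and 3 nearby RNase-only peaks, from lists of 4 to 12 peaks.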
